A study of Mus musculus with 12 samples.

Results

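Transcripts of glycolysis and pyruvate entry were followed in mouse γδ T cells and their thymic neighbours that carried or lacked the transcription factor GFI1. The 34 genes were chosen by symbol from the 33696 genes listed in the count matrices, as members of the pathway. They cover glucose carriers, the enzymes from hexokinase to pyruvate kinase, lactate dehydrogenase and the lactate carriers, the pyruvate dehydrogenase kinases, the mitochondrial pyruvate carrier, the pyruvate dehydrogenase complex and Hif1a. Cells came from adult C57BL6/J mice that were WT or germline GFI1 KO, a deletion present in every cell of the animal, so that a difference can arise in the cells themselves or in their surroundings. The sorts were profiled in 2 pools each: γδ T cells of the spleen, γδ T cells of the thymus, and the thymic stages DN1 to DN3 together, which are early T cell precursors that bear neither CD4 nor CD8. WT and KO cells of a pool carried different hashtag antibodies and shared a droplet run, which gave 12 demultiplexed libraries, 2 for each genotype in each of 3 compartments. Thymic γδ T and DN cells came from the same mice, and the labels do not say whether the pools of a compartment came from separate animals, so that the p-values measure the spread between pools, which may be technical.

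Glycolysis splits glucose into pyruvate in the cytosol. Pyruvate is then either reduced to lactate by lactate dehydrogenase and exported by monocarboxylate carriers, or taken into the mitochondrion and oxidised to acetyl-CoA by pyruvate dehydrogenase, which the pyruvate dehydrogenase kinases switch off. T cells raise glycolysis when they are activated or divide, HIF1A induces many of the genes named here, and γδ T cells that make IL-17 (γδT17 cells) are known to differ in their fuel use from those that make interferon-γ.

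The libraries held 6795 to 11679 cells and 42091895 to 71663962 UMIs, with medians of 4947 to 6853 UMIs per cell. Gfi1 transcripts were not lower in the libraries labelled KO: in spleen they stood at 11.8 and 18.0 CPM (the UMIs of a gene scaled to a common library total) in WT and 18.1 and 18.1 CPM in KO, and in DN cells at 44.7 and 40.6 CPM in WT and 70.6 and 56.6 CPM in KO. A 3′ count does not report whether the transcript still codes for protein, so the genotype rests on the labels. A list of 7 γδ T cell genes summed to 4456 to 8054 CPM in the γδ T libraries and 4157 to 4424 CPM in the DN libraries, and so did not set them clearly apart. The 10 DN precursor genes summed to 2182 to 2889 CPM in the DN libraries against 704 to 1124 CPM in the γδ T libraries. Libraries of one pool shared no cell barcode, and the other 60 pairs of libraries shared 5 to 34. Xist was at most 0.374 CPM in spleen and 739 to 1600 CPM in thymus, so that tissue, droplet run, mice and their sex cannot be told apart in any comparison of thymus with spleen. Ddx3y, a Y-linked gene, had 82.2 to 100.3 CPM in spleen and 11.6 to 35.8 CPM in thymus, and the thymic libraries held transcripts of both genes. In DN cells it stood at 28.0 and 26.0 CPM in WT and 11.6 and 14.2 CPM in KO, and the part of sex in the DN results was not tested.

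Promoter sequences of 3 members are shown first, because these genes carried the largest genotype differences of the lactate and pyruvate steps: Ldhb and Pdk1, which were lower in KO, and Slc16a3, which was higher. Each line gives the 250 bases before the RefSeq transcription start, 5′ to 3′ on the strand of the gene, in assembly GRCm38.p6. Ldhb lies on the minus strand of chromosome 6 (chr6:142507958-142508207), Slc16a3 on the plus strand of chromosome 11 (chr11:120948817-120949066), and the first listed start of Pdk1 on the plus strand of chromosome 2 (chr2:71872974-71873223). Capitals mark ACGTG or GCGTG, the core that HIF1 binds, searched on both strands.
Ldhb: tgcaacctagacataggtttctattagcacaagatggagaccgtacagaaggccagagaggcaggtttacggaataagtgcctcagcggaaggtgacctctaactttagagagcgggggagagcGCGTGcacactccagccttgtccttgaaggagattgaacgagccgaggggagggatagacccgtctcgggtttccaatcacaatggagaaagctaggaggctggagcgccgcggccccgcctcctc
Slc16a3: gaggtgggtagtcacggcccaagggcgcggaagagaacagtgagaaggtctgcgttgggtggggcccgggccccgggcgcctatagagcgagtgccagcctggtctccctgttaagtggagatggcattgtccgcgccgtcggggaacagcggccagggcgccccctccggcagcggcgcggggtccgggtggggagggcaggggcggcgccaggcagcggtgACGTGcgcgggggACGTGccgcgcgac
Pdk1: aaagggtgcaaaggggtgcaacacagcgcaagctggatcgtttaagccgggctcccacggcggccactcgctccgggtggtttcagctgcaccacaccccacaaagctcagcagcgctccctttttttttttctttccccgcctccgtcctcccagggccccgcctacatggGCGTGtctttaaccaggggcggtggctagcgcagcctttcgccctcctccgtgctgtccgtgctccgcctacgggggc
The core occurred 1 time before Ldhb, 2 times before Slc16a3 and 1 time before this start of Pdk1, and 0 times before its second listed start (chr2:71874654-71874903, not shown). AATC occurred 2 times before Ldhb and before the second Pdk1 start, and 0 times before Slc16a3 and the first Pdk1 start. RefSeq promoters were found for 33 of the 34 members, all but Slc2a3. Of their 48 windows, 37 (77.1%) held the core, against 38.6% of all 32851 windows of that length. The letters AATC, the core that GFI1 binds, stood on either strand in 22 of the 48 windows (45.8%), against 69.0% of all windows. The windows were not matched for base composition, and a match describes letters only.

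The summed UMIs of the 34 members made up a larger part of the transcriptome in KO than in WT splenic γδ T cells, and a slightly smaller part in KO than in WT thymic γδ T cells. In spleen the share was 0.174% and 0.178% of all gene UMIs in the WT libraries and 0.265% and 0.278% in the KO libraries, without overlap and with a ratio of means of 1.54. Thymic γδ T cells held 0.267% and 0.268% in WT and 0.248% and 0.245% in KO, a ratio of 0.920. DN cells held 0.264% and 0.283% in WT and 0.239% and 0.270% in KO, where the genotypes overlapped. WT splenic γδ T cells thus had the lowest shares of the 12 libraries, and the KO splenic libraries lay within the range of the thymic ones. Within single cells the median share was 0.157% and 0.166% in WT spleen and 0.258% and 0.271% in KO spleen. In thymic γδ T cells that median was 0.215% and 0.220% in WT and 0.228% and 0.230% in KO, opposite in direction to the summed share. The DN medians overlapped, at 0.202% and 0.220% in WT and 0.203% and 0.216% in KO. Gapdh alone gave 20.6% of all member UMIs, Ldha 10.7% and Pkm 7.56%. No test was made on this sum, and without Gapdh the log2 ratio of KO to WT in thymic γδ T cells was 0.016 in place of -0.12. In sums over a library, fewer cells of a type and less RNA per cell cannot be told apart.

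**Figure D1:**
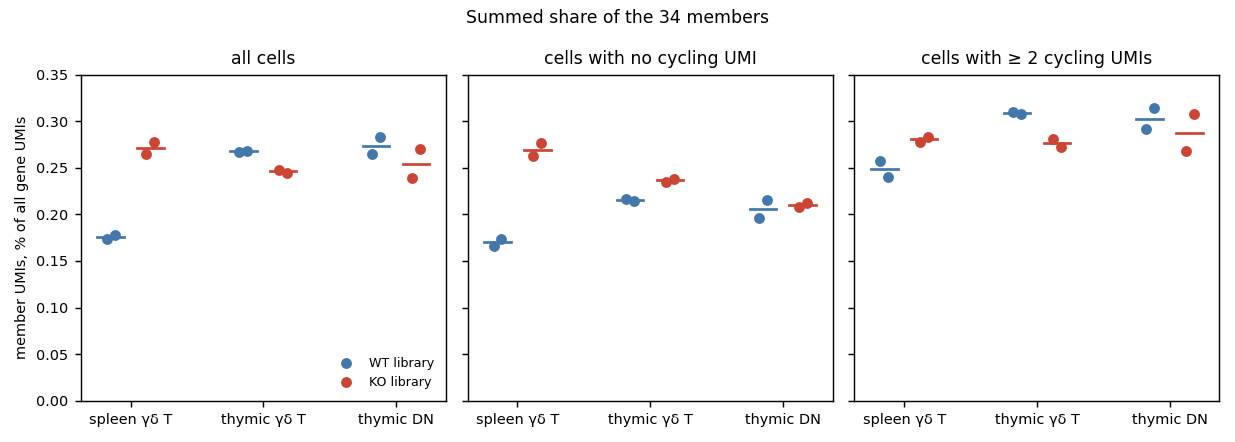
Summed UMIs of the 34 members as a percent of all gene UMIs in each library, WT in blue and KO in red, for the cell classes named on the panels. Over all cells the WT spleen libraries (0.174% and 0.178%) lie lowest and the other 10 libraries lie at 0.239% or above.

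In every library the member share was higher in cells with at least 2 cycling UMIs than in cells without one. The part of cell division in the genotype differences was not tested. Cells with at least 2 UMIs over 10 cycling genes made up 32.1% and 36.9% of WT and 16.6% and 13.9% of KO thymic γδ T cells, 52.1% and 47.8% of WT and 37.6% and 42.0% of KO DN cells, and 3.01% and 1.97% of WT and 10.3% and 9.02% of KO splenic cells. The summed cycling genes did not show that increase in spleen, with 135 and 87.0 CPM in WT and 109 and 82.9 CPM in KO. In cells without a cycling UMI the member share was 0.216% and 0.214% in WT and 0.235% and 0.238% in KO thymic γδ T cells, opposite in direction to all cells. Among splenic cells without a cycling UMI the difference was as large as in all cells, at 0.166% and 0.174% in WT and 0.262% and 0.276% in KO. These cells were 6952 of 7820 and 10245 of 11160 in the WT libraries. In the KO libraries they were 5331 of 7815 and 8172 of 11679. The set thus leaves out a larger part of the KO than of the WT splenic cells.

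Of the 34 members, 33 had enough counts to be tested. In spleen 26 were called (18 higher and 8 lower in KO), against 54.8% of all genes tested called in that comparison. The median log2 difference in spleen was 0.47 over the members tested and 0.0032 over all genes. Thymic γδ T cells gave 18 calls (7 higher, 11 lower), against 49.7% of all genes, with a median of 0.0185 over the members and -0.0017 over all genes. In DN cells 5 were called (3 higher, 2 lower), against 23% of all genes. A call here is an adjusted p below 0.05 in the edgeR quasi-likelihood test over all genes. Ldhb, Slc16a1 and Slc16a3 were called in all 3 compartments, 13 members in 2, 14 in 1, and Hk2, Pfkfb3, Pdhb and Pdk4 in none. With 54.8%, 49.7% and 23% of all genes called in the 3 comparisons, repeated calls are common. How many of all genes were called in all 3 compartments was not counted. Pdk4 was not tested, since a single UMI was counted over all libraries.

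**Figure D2:**
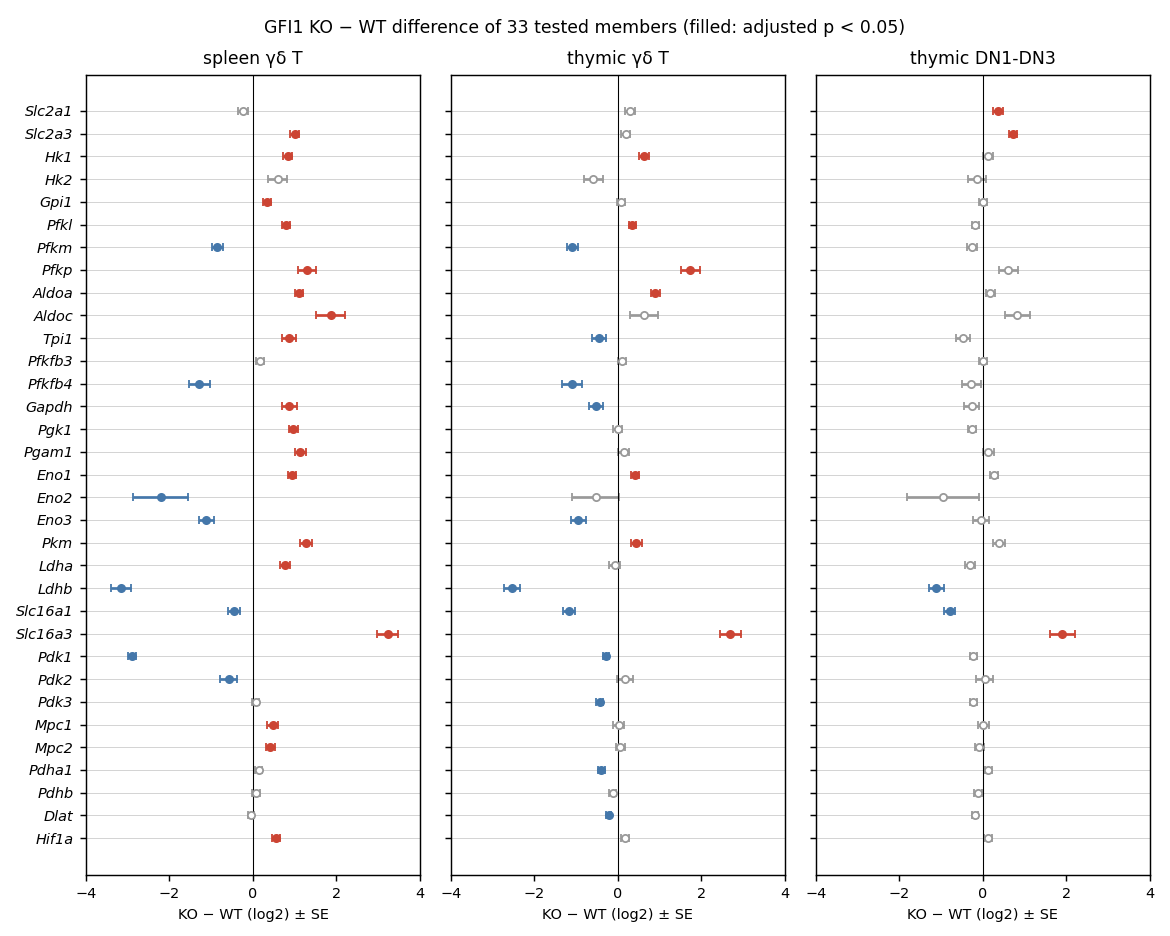
Log2 difference between KO and WT with its standard error for the 33 tested members, in splenic γδ T cells, thymic γδ T cells and DN1-DN3 cells, with called and uncalled members marked. Slc16a3 lies at the right and Ldhb at the left in each panel, while Pdk1 is far to the left in spleen (-2.90) and nearer to 0 in thymic γδ T (-0.28) and DN cells (-0.22).

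Of the glucose carriers, Slc2a3, the high-affinity GLUT3, stood at 39.9 and 40.3 CPM in WT and 77.3 and 72.5 CPM in KO spleen, a log2 difference of 1.00 ± 0.10 (SE, adjusted p = 2.28e-05). It rose in DN cells too, from 27.1 and 21.7 CPM to 44.8 and 35.8 CPM (0.72 ± 0.10, adjusted p = 0.000973), and all KO libraries lay above WT in both compartments. The thymic γδ T libraries overlapped at 36.8 to 40.8 CPM. Slc2a1, which encodes the broadly expressed GLUT1, had 16.8 and 18.8 CPM in WT and 13.5 and 14.9 CPM in KO spleen and was not called there (adjusted p = 0.114). Of 14 alternatives 3 called it in spleen, with log2 differences of -0.46 to -0.19 over the alternatives. Its thymic γδ T levels were 13.1 and 11.9 CPM in WT and 13.2 and 14.7 CPM in KO, likewise not called. The KO libraries thus lay below WT in spleen and above WT in thymic γδ T cells, each without overlap. Lack of overlap was common among the 14047 genes kept for this count, which had at least 120 UMIs over the libraries. Of these genes 79.0% did not overlap between genotypes in spleen, 82.1% in thymic γδ T cells and 59.2% in DN cells. In DN cells Slc2a1 had 7.26 and 6.45 CPM in WT and 9.77 and 8.05 CPM in KO (0.37 ± 0.12, adjusted p = 0.0484). That call was lost in 10 of 14 alternatives, among them the pool as a replicate block (adjusted p = 0.055) and the fits without WT library 1, WT library 2 or KO library 1.

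Among the 9 members that lead from glucose to the triose phosphates, 7 rose and 1 fell in spleen, where 54.8% of all genes were called in either direction. Hk1, the housekeeping hexokinase, had 57.1 and 59.6 CPM in WT and 93.3 and 101 CPM in KO spleen, and 53.6 and 49.0 CPM in WT and 72.1 and 73.4 CPM in KO thymic γδ T cells. It was called in both, with log2 differences of 0.83 ± 0.11 (adjusted p = 0.000134) and 0.63 ± 0.11 (adjusted p = 0.00105). Hk2, the hexokinase induced in activated T cells, was low, at 2.97 and 3.36 CPM in WT and 4.27 and 4.66 CPM in KO spleen. In thymic γδ T cells it stood at 7.18 and 7.02 CPM in WT and 3.80 and 4.85 CPM in KO, and in DN cells at 13.3 and 10.7 CPM in WT and 8.62 and 12.9 CPM in KO. KO libraries were above WT in spleen, below WT in thymic γδ T cells and overlapped WT in DN cells. Neither γδ T comparison called Hk2 (log2 0.59 ± 0.23 with adjusted p = 0.0505 in spleen, -0.59 ± 0.22 with adjusted p = 0.051 in thymus), and 4 and 7 alternatives did. In cells without a cycling UMI the thymic difference was -0.014 (adjusted p = 0.976) and the splenic one 0.71 (adjusted p = 0.036). Gpi1, the isomerase of the next step, rose in spleen by 0.35 ± 0.09 (adjusted p = 0.0106), a call lost without WT library 1 or KO library 1 (adjusted p of 0.0968 and 0.0502) and in cells without a cycling UMI (adjusted p = 0.06).

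Phosphofructokinase commits sugar to glycolysis, and its 3 isozymes moved apart. Pfkp, the platelet type, rose from 79.9 and 76.3 CPM to 177 and 183 CPM in spleen (1.30 ± 0.22, adjusted p = 0.000742). The thymic γδ T levels rose from 35.4 and 36.8 CPM to 99.6 and 120 CPM (1.73 ± 0.22, adjusted p = 0.000163). In DN cells it had 26.8 and 22.6 CPM in WT and 50.6 and 26.0 CPM in KO. The DN difference of 0.62 was not called, as KO library 2 lay within the WT range, and without that library it was 0.94 (adjusted p = 0.000209). It was called with the pool as a block (0.56, adjusted p = 0.0444), by DESeq2 (0.61, adjusted p = 0.0319) and in cells without a cycling UMI (1.65, adjusted p = 0.00192). Pfkl, the liver type, rose by 0.79 ± 0.09 in spleen (adjusted p = 3.33e-05) and 0.35 ± 0.09 in thymic γδ T cells (adjusted p = 0.00749), the latter lost without WT library 2 (adjusted p = 0.0557). Pfkm, the muscle type, fell from 4.21 and 4.02 CPM to 2.20 and 2.07 CPM in spleen (adjusted p = 0.000505) and from 8.33 and 8.39 CPM to 3.61 and 3.59 CPM in thymic γδ T cells (adjusted p = 0.000102). Of all phosphofructokinase UMIs, Pfkp held 55.7% ± 0.74 (SD, n = 2) in WT and 79.9% ± 2.60 in KO thymic γδ T cells, and 77.7% ± 1.07 in WT and 85.0% ± 0.80 in KO spleen.

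The aldolase Aldoa rose from 112 and 106 CPM to 218 and 220 CPM in spleen (1.10 ± 0.11, adjusted p = 1.34e-05). The thymic γδ T levels rose from 95.8 and 97.9 CPM to 166 and 166 CPM (0.90 ± 0.11, adjusted p = 7.6e-05), and in DN cells the genotypes overlapped at 63.8 to 85.5 CPM. Aldoa was not called in DN cells, while 2 of 14 alternatives called it there, with log2 differences of -0.0030 to 0.51 over the alternatives. Aldoc, an aldolase best known from brain, was at most 3.18 CPM and was called in spleen (1.86 ± 0.34, adjusted p = 0.00109), where it gave 17 and 31 UMIs in WT and 77 and 107 UMIs in KO. Tpi1, the triose phosphate isomerase, stood at 23.9 and 21.5 CPM in WT and 36.0 and 40.9 CPM in KO spleen (0.86 ± 0.17, adjusted p = 0.00193). In thymic γδ T cells it was lower in KO, at 55.0 and 60.5 CPM in WT and 42.2 and 35.6 CPM in KO (-0.45 ± 0.17, adjusted p = 0.0489), and that call was lost without any single library of the compartment (adjusted p of 0.0803 to 0.219). Pfkfb3 and Pfkfb4 belong to the family of bifunctional enzymes that set the level of fructose 2,6-bisphosphate, an activator of phosphofructokinase. Pfkfb3 was not called in any compartment, at 52.5 to 71.1 CPM in the 12 libraries. Pfkfb4 fell in spleen by 1.28 ± 0.26 (adjusted p = 0.00178) and in thymic γδ T cells by 1.10 ± 0.24 (adjusted p = 0.00348), from 2.45 to 5.21 CPM in the WT γδ T libraries.

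In the payoff phase, from triose phosphate to pyruvate, 5 of 7 members rose and 2 fell in spleen, against 54.8% of all genes called. Gapdh, the dehydrogenase often used as a reference gene, was at 251 and 260 CPM in WT and 422 and 451 CPM in KO spleen (0.87 ± 0.18, adjusted p = 0.00209). In thymic γδ T cells it lay the other way, at 647 and 663 CPM in WT and 442 and 397 CPM in KO (-0.52 ± 0.18, adjusted p = 0.0317), and in DN cells the genotypes overlapped at 470 to 741 CPM. The thymic call was lost without any single library of the compartment (adjusted p of 0.0826 to 0.134). Pgk1, the first ATP-forming kinase, rose by 0.97 ± 0.10 in spleen (adjusted p = 2.55e-05), with a log2 difference of -0.01 in thymic γδ T cells. The mutase Pgam1 had 59.8 and 64.7 CPM in WT and 120 and 135 CPM in KO spleen (1.13 ± 0.13, adjusted p = 4.62e-05) and overlapped between genotypes in both thymic compartments, at 139 to 173 CPM. Pkm, pyruvate kinase, had 103 and 111 CPM in WT and 231 and 252 CPM in KO spleen (1.27 ± 0.14, adjusted p = 3.14e-05). It also rose in thymic γδ T cells, from 173 and 180 CPM to 223 and 218 CPM (0.44 ± 0.14, adjusted p = 0.0208), a call lost without any single library of that compartment (adjusted p of 0.0558 to 0.109). In DN cells both KO libraries were above WT, at 200 and 245 CPM against 158 and 182 CPM, without a call (adjusted p = 0.0669).

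The enolases split too. Eno1, the main form, rose by 0.94 ± 0.10 in spleen (adjusted p = 2.07e-05) and 0.41 ± 0.10 in thymic γδ T cells (adjusted p = 0.00558), the latter lost without WT library 2 (adjusted p = 0.0521). Eno3, the muscle form, fell from 4.42 and 4.47 CPM to 1.90 and 1.94 CPM in spleen and from 10.2 and 9.22 CPM to 5.48 and 3.77 CPM in thymic γδ T cells (adjusted p of 0.000597 and 0.00139). Eno2, the neuronal form, was below 1 CPM in every library. Its call in spleen (-2.21 ± 0.66, adjusted p = 0.0158) rests on 11 and 30 UMIs in WT and 4 and 5 UMIs in KO, and was lost without WT library 2, KO library 1 or KO library 2 (adjusted p of 0.127, 0.0545 and 0.103).

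The 3 members called between genotypes in every compartment, Ldhb, Slc16a1 and Slc16a3, belong to the lactate step. The share of all genes called in every compartment was not counted. Ldhb, the lactate dehydrogenase subunit of tissues that take up and oxidise lactate, was at 8.41 and 7.38 CPM in WT and 0.748 and 0.892 CPM in KO spleen, with a log2 difference of -3.15 ± 0.24 (adjusted p = 4.04e-06). It fell from 49.1 and 44.9 CPM to 9.09 and 5.91 CPM in thymic γδ T cells (-2.53 ± 0.19, adjusted p = 9.74e-06). In DN cells it fell from 59.2 and 66.0 CPM to 25.6 and 32.0 CPM (-1.12 ± 0.18, adjusted p = 0.00201). No KO library reached a WT library of its compartment. Ldha, the subunit that favours lactate formation, had 170 and 176 CPM in WT and 267 and 285 CPM in KO spleen (0.77 ± 0.13, adjusted p = 0.000609). It had 295 and 305 CPM in WT and 251 and 270 CPM in KO thymic γδ T cells, and 300 and 331 CPM in WT and 233 and 275 CPM in KO DN cells. KO lay below WT in both thymic compartments, yet neither difference was called (log2 -0.08 and -0.31). With the pool as a block the DN difference was called (adjusted p = 0.0175), as it was without KO library 2 (-0.53, adjusted p = 0.0078), and in thymic γδ T cells without a cycling UMI Ldha was higher in KO (0.32, adjusted p = 0.0486).

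With these changes the subunit balance differed. Ldhb made up 4.71% (95% Wilson interval 4.25 to 5.21%) and 4.02% (3.67 to 4.40%) of the lactate dehydrogenase UMIs in WT spleen, and 0.279% (0.201 to 0.388%) and 0.312% (0.243 to 0.400%) in KO spleen. The mean share was 13.6% ± 0.98 (SD, n = 2) in WT and 2.82% ± 0.96 in KO thymic γδ T cells, and 16.6% ± 0.080 in WT and 10.2% ± 0.36 in KO DN cells. The Wilson intervals cover counting error only.

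The 2 plasma membrane lactate carriers moved in opposite directions. Slc16a3, which encodes MCT4, the carrier of strongly glycolytic cells, rose from 2.02 and 2.08 CPM to 17.2 and 18.9 CPM in spleen, 8.79-fold by the means (log2 3.23 ± 0.25, adjusted p = 3.45e-06). It rose from 1.87 and 1.84 CPM to 10.5 and 11.5 CPM in thymic γδ T cells (2.69 ± 0.25, adjusted p = 1.89e-05). In DN cells it rose from 0.453 and 0.514 CPM to 2.53 and 1.19 CPM (1.91 ± 0.29, adjusted p = 0.00129), which were 28 and 32 UMIs in WT and 118 and 67 UMIs in KO. Slc16a1, which encodes the widely expressed MCT1, fell from 11.6 and 9.84 CPM to 7.16 and 7.44 CPM in spleen (-0.46 ± 0.14, adjusted p = 0.0211), a call lost without WT library 1, KO library 1 or KO library 2 (adjusted p of 0.133, 0.0759 and 0.0835). It fell from 21.2 and 25.6 CPM to 10.2 and 8.79 CPM in thymic γδ T cells (-1.18 ± 0.14, adjusted p = 8.82e-05) and from 77.2 and 71.7 CPM to 38.8 and 46.6 CPM in DN cells (-0.79 ± 0.13, adjusted p = 0.00228). In thymic γδ T cells without a cycling UMI the fall was smaller (-0.49, adjusted p = 0.00994). Of the UMIs of both carriers, Slc16a3 had 16.1% ± 1.86 (SD, n = 2) in WT and 71.2% ± 0.86 in KO spleen, 7.40% ± 0.98 in WT and 53.6% ± 4.39 in KO thymic γδ T cells, and 0.648% ± 0.090 in WT and 4.30% ± 2.56 in KO DN cells.

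**Figure D3:**
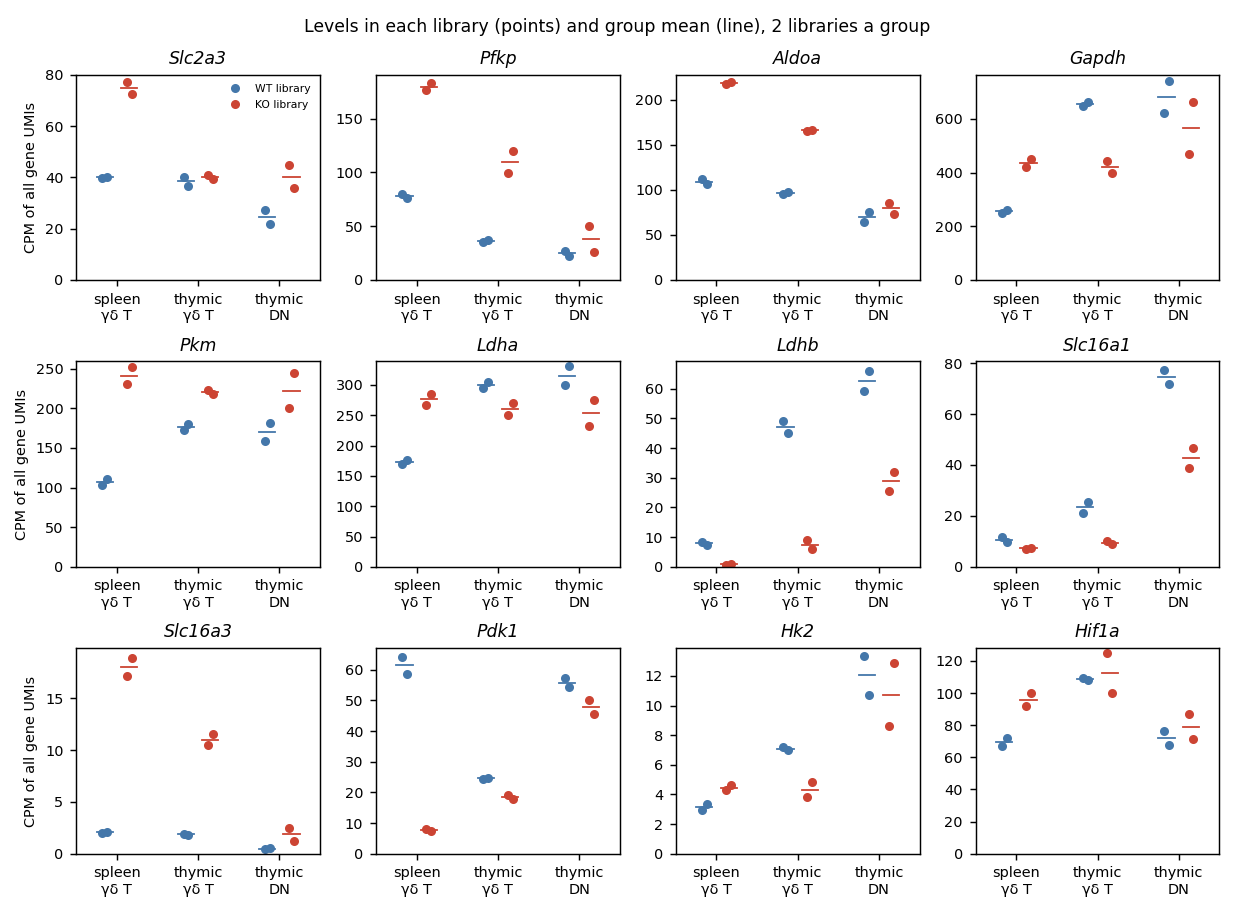
CPM of selected members in each library, shown as points with the group mean as a line, WT in blue and KO in red, 2 libraries a group. Ldhb and Slc16a1 are lower and Slc16a3 higher in KO in all 3 compartments, and Gapdh lies higher in KO spleen (422 and 451 CPM against 251 and 260 CPM) and lower in KO thymic γδ T cells (442 and 397 CPM against 647 and 663 CPM).

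**Figure D4:**
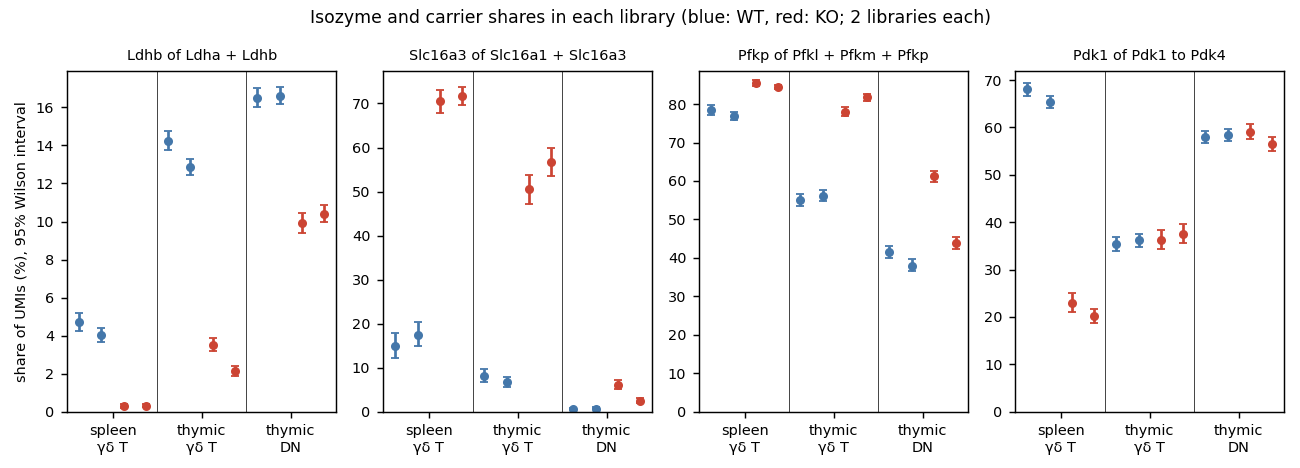
Share of Ldhb, Slc16a3, Pfkp and Pdk1 in the UMIs of their enzyme or carrier family in each library, in percent with 95% Wilson intervals, WT in blue and KO in red. Slc16a3 passes from 14.8% and 17.5% in the WT to 70.6% and 71.8% in the KO spleen libraries, and Pdk1 from 68.0% and 65.4% to 22.9% and 20.1%.

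Pdk1 had the smallest adjusted p of the members in spleen. This kinase inhibits pyruvate dehydrogenase and thereby keeps pyruvate out of oxidation, and it is a known HIF1 target. Its level was 64.1 and 58.7 CPM in WT and 8.07 and 7.35 CPM in KO spleen, a log2 difference of -2.90 ± 0.09 (adjusted p = 2.51e-08) that no alternative brought above the threshold. In thymic γδ T cells it had 24.4 and 24.8 CPM in WT and 19.3 and 17.9 CPM in KO (-0.28 ± 0.08, adjusted p = 0.0151), a call lost without WT library 1, WT library 2 or KO library 2 (adjusted p of 0.0606, 0.0731 and 0.0744). In DN cells it had 57.3 and 54.3 CPM in WT and 50.2 and 45.5 CPM in KO, not called (adjusted p = 0.0682). Pdk2 fell by 0.59 ± 0.20 in spleen (adjusted p = 0.0284), which was lost without WT library 1 or KO library 2 (adjusted p of 0.139 and 0.155). Pdk3 fell by 0.43 ± 0.08 in thymic γδ T cells (adjusted p = 0.00163), with a log2 difference of 0.07 in spleen, and its thymic call was lost in cells without a cycling UMI (adjusted p = 0.117).

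The pyruvate entry genes differed less. The carrier subunits Mpc1 and Mpc2 rose in spleen by 0.47 ± 0.13 (adjusted p = 0.0109) and 0.41 ± 0.11 (adjusted p = 0.0078). Both calls were lost without WT library 2 (adjusted p of 0.121 and 0.0732), and that of Mpc1 also without KO library 1 (adjusted p = 0.0817). Of the complex itself, Pdha1, the catalytic alpha subunit, fell in thymic γδ T cells from 110 and 106 CPM to 76.9 and 73.5 CPM (-0.40 ± 0.08, adjusted p = 0.0029). Dlat, the acetyltransferase core, fell there by 0.22 ± 0.07 (adjusted p = 0.0239), lost without WT library 2 or KO library 1 (adjusted p of 0.15 and 0.132) and in cells without a cycling UMI (adjusted p = 0.149). Pdhb, the beta subunit, was not called in any compartment, with log2 differences of 0.07, -0.12 and -0.11.

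Hif1a, the oxygen-regulated activator of many of these genes, had 66.9 and 71.9 CPM in WT and 91.9 and 99.7 CPM in KO spleen (0.56 ± 0.10, adjusted p = 0.000795). It had 109 and 108 CPM in WT and 125 and 100 CPM in KO thymic γδ T cells, and 76.1 and 67.9 CPM in WT and 86.8 and 71.2 CPM in KO DN cells, where the libraries overlapped. RNA does not report the level of the protein, which is controlled mainly by its stability.

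Several of these counts move with scaling, with the pools or with dividing cells. Scaling by library totals alone moved the median of all genes to -0.22 log2 in spleen and -0.11 in thymic γδ T cells, and members then split 15 higher and 10 lower in spleen, with Gpi1, Mpc1 and Mpc2 no longer called, against 57.2% of all genes (2902 higher, 5640 lower). Over thymic γδ T cells without a cycling UMI the split was 11 higher and 7 lower, in place of 7 and 11, against 43.7% of all genes called. Among these cells Tpi1, Pgk1 and Ldha were higher in KO (log2 0.45, 0.48 and 0.32, adjusted p of 0.00834, 0.00624 and 0.0486), Pgam1 rose by 0.78 (adjusted p = 9.82e-05), and Gapdh had a log2 difference of -0.05 (adjusted p = 0.833). The thymic γδ T count was 11 without WT library 2, against 35.5% of all genes. In DN cells 12 members were called with the pool as a replicate block (5 higher, 7 lower), where Pfkp, Eno1 and Pkm were added as higher and Tpi1, Gapdh, Pgk1, Ldha and Pdk1 as lower, with adjusted p of 0.00602 to 0.0445. Under the block 28.7% of all genes were called there. The DN count was 13 without KO library 2 (4 higher, 9 lower) and 10 among cells without a cycling UMI (7 higher, 3 lower), against 32.7% and 23.3% of all genes.

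The effects of genotype in spleen and in thymic γδ T cells were compared directly. The difference of the effects was called for 15 members, against 29.6% of all genes. For 13 of them the log2 difference between KO and WT, taken with its sign, was higher in spleen. They were Slc2a3, Hk2, Pfkl, Tpi1, Gapdh, Pgk1, Pgam1, Eno1, Pkm, Ldha, Slc16a1, Pdk3 and Pdha1, so that 5 of the 7 members of the payoff phase were among them. A higher signed value is not always a rise: Slc16a1 fell in both tissues and less in spleen, and Pdk3 and Pdha1 were called lower in thymus and not called in spleen. Slc2a1 and Pdk1 had the lower log2 difference in spleen, Pdk1 by -2.62 ± 0.12 (adjusted p = 3.13e-06). Of the 15 members called in both tissues, 13 had one direction in both, and Tpi1 and Gapdh had opposite ones. Of the 5047 genes called in both tissues, 89.7% had one direction, so the members' count is near that of all genes. Both thymic calls were lost when any 1 of the 4 libraries was left out, and in thymic γδ T cells without a cycling UMI Tpi1 was higher in KO (0.45, adjusted p = 0.00834) and Gapdh was not called (-0.05, adjusted p = 0.833). With the pool as a replicate block 18 were called, Mpc1, Mpc2 and Hif1a being added (adjusted p of 0.0136, 0.0194 and 0.0244), against 35.2% of all genes. The count was 8 without WT library 2 of the thymic γδ T cells, where Pkm and Pdk3 were among those lost (adjusted p of 0.0576 and 0.0503), and 7 (5 higher, 2 lower) among cells without a cycling UMI, against 17.2% and 20% of all genes. Of the payoff members Gapdh alone was still called in those cells, and Pgk1, Pgam1, Eno1 and Pkm were not (adjusted p of 0.0614, 0.142, 0.164 and 0.084).

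Of the remaining differences of effect, 5 were lost without most of the 8 single libraries of the comparison. Pfkl lost its call without any of them but KO library 1 of spleen (adjusted p up to 0.102), and Hk2 without any but KO library 1 of spleen and KO library 2 of thymus (up to 0.0725). Slc2a1 lost it without any but WT library 1 of spleen and KO library 1 of thymus (up to 0.134). Eno1 kept it without WT library 2 or KO library 1 of spleen or KO library 2 of thymus, and lost it otherwise (up to 0.0669), and Slc16a1 kept it without WT library 1 of either tissue or KO library 1 of thymus (otherwise up to 0.127).

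WT thymic γδ T cells held more of these transcripts than WT splenic γδ T cells, by a ratio of summed shares of 1.52. Of the 33 members tested 18 were higher and 4 lower in thymus, against 48.8% of all genes called. Ldhb was higher by 2.5 ± 0.19 (adjusted p = 8.89e-06), and Gapdh, Tpi1 and Pgam1 by 1.28, 1.27 and 1.12. Pdk1 and Pfkp differed by -1.40 ± 0.08 (adjusted p = 1.59e-06) and -1.19 ± 0.22 (adjusted p = 0.00175). Between the KO libraries the ratio of shares was 0.907, with 5 members higher and 7 lower in thymus against 36.6% of all genes called, and Pdk1 lay on the other side, at 1.22 ± 0.08 (adjusted p = 4.65e-06). That KO count was 7 without KO library 2 of spleen and 7 without KO library 1 of thymus, and scaling by library totals split it 8 higher and 6 lower, against 23.4%, 24% and 37.3% of all genes. Among cells without a cycling UMI 13 members were called in WT (9 higher, 4 lower), against 34.5% of all genes.

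Cell makeup differed strongly between genotypes. Cells whose leading γ chain variable gene was Trgv6, the chain of a large IL-17 γδ T subset, were 2.40% and 2.05% of WT and 43.8% and 39.5% of KO splenic cells, and 0.601% and 0.715% of WT and 29.8% and 35.3% of KO thymic γδ T cells. A list of 11 γδT17 genes summed to 816 and 788 CPM in WT and 8355 and 8892 CPM in KO spleen, and to 1216 and 1025 CPM in WT and 6320 and 7553 CPM in KO thymic γδ T cells. A list of 8 genes of interferon-γ-type γδ T cells summed to 3750 and 4097 CPM in WT and 487 and 378 CPM in KO spleen. In the DN libraries the γδT17 list summed to 137 and 129 CPM in WT and 1521 and 813 CPM in KO, and the interferon-γ-type list to 240 and 231 CPM in WT and 636 and 430 CPM in KO. KO library 1 was above KO library 2 in both lists, and also in Slc16a3, Pfkp and Slc2a3, and the part of the marked cells in the DN results was not tested.

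Markers of other cells were measured beside these, after a sort that had been preceded by depletion of B, myeloid and NK cells. Erythroid genes, 6 in all, summed to 44.9 and 39.2 CPM in WT and 169 and 75.4 CPM in KO spleen. Of 10 myeloid genes 8 were below 1 CPM in all 4 splenic libraries, and the list summed to 107 and 92.9 CPM in WT and 314 and 338 CPM in KO. Lists of 7 NK and innate lymphoid genes and 6 αβ T cell genes summed in spleen to 305 and 326 CPM in WT and 358 and 399 CPM in KO, and to 1745 and 1806 CPM in WT and 1031 and 993 CPM in KO. A B-lineage list of 6 genes summed to 30.8 and 26.8 CPM in WT and 52.9 and 52.7 CPM in KO spleen, and leaving out cells with at least 2 of its UMIs left 26 members called, against 54.7% of all genes. The αβ T list summed in thymic γδ T cells to 3175 and 3262 CPM in WT and 1531 and 1303 CPM in KO, the interferon-γ-type list to 780 and 732 CPM in WT and 401 and 297 CPM in KO, and the myeloid list, with 9 of 10 genes below 1 CPM, to 97.6 and 91.8 CPM in WT and 186 and 175 CPM in KO. In DN cells the NK and innate lymphoid list summed to 136 and 124 CPM in WT and 261 and 213 CPM in KO. The part of the other lists in the results was not tested.

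Splenic cells were also compared within called classes, Trgv6 and Trgv1, the second being a chain shared by several subsets. Calls are uncertain where similar γ chain genes share reads, and 31.6% to 44.2% of splenic cells had no call. A single UMI suffices for a call, WT and KO cells shared a droplet run, and the part of free Trgv RNA, Trgv6 in the WT class and Trgv1 in the KO class, was not tested. In DN cells, of other runs, 0.120% to 0.558% were Trgv6-called and 1.64% to 2.42% Trgv1-called. The Trgv1-called share of KO spleen, 2.20% and 2.26%, lay within that range, against 8.62% and 9.49% in WT spleen, so the KO Trgv1 class is no more frequent than calls in DN cells and is described by its call only. The Trgv6 class held 188 and 229 cells in WT and 3422 and 4613 in KO, and the Trgv1 class 674 and 1059 in WT and 172 and 264 in KO. In the Trgv6 class the summed member share was 0.240% and 0.220% in WT and 0.264% and 0.276% in KO, and in the Trgv1 class 0.175% and 0.177% in WT and 0.259% and 0.272% in KO.

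Within Trgv6-called cells 6 of 32 tested members were called (4 higher, 2 lower), against 12% of all genes. Pdk1 was at 27.3 and 37.7 CPM in WT and 6.40 and 6.55 CPM in KO (-2.38 ± 0.24, adjusted p = 5.84e-05). Ldhb was at 7.66 and 4.98 CPM in WT, which were 9 and 7 UMIs, and 0.603 and 0.981 CPM in KO (-2.99 ± 0.58, adjusted p = 0.00505). Hk1, Pfkp, Pgam1 and Pkm were higher by 0.59, 0.54, 0.66 and 0.59. Slc16a3 had 11.9 and 7.83 CPM in WT and 16.7 and 19.5 CPM in KO, a difference of 0.86 ± 0.28 that was not called (adjusted p = 0.0737), and Gapdh had a log2 difference of -0.01 ± 0.13. The count was 2 without KO library 1, where Pgam1 and Pdk1 kept their calls, and 1 without KO library 2, where Pdk1 kept it, against 7.83% and 6.05% of all genes. The Ldhb call was lost in both cases (adjusted p of 0.271 and 0.261). With at least 2 Trgv6 UMIs required, 110 and 114 WT cells remained and 4 members were called (3 higher, 1 lower) against 9.14% of all genes, without Ldhb and Pkm (adjusted p of 0.0999 and 0.0529).

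Within Trgv1-called cells 17 of 30 tested members were called (15 higher, 2 lower), against 39% of all genes. Pdk1 fell from 61.8 and 57.3 CPM to 9.78 and 6.90 CPM (-2.86 ± 0.27, adjusted p = 1.26e-10). Slc16a3 rose from 1.33 and 1.02 CPM to 12.7 and 15.9 CPM (3.62 ± 0.50, adjusted p = 3.25e-07), on 5 and 6 UMIs in WT and 13 and 23 UMIs in KO. Gapdh rose from 258 and 261 CPM to 443 and 416 CPM (0.74 ± 0.12, adjusted p = 4.82e-06). Ldhb had 30 and 46 UMIs in WT and 2 and 1 UMIs in KO and was called lower (adjusted p = 0.00177), which was lost without KO library 2 (adjusted p = 0.0765). DESeq2 called 10 members, and 11 were called with at least 2 UMIs required for the Trgv call, which left 74 and 111 KO cells, against 19.9% and 28.5% of all genes. In KO spleen the Trgv1 and Trgv6 classes had similar mean levels of Gapdh (430 and 429 CPM) and Pkm (238 and 241 CPM). Pfkp (177 and 182 CPM) and Pdk1 (8.34 and 6.47 CPM) were also close. Slc2a3 (59.4 and 79.2 CPM) and Hk2 (8.25 and 4.37 CPM) lay further apart. Whether the KO Trgv1 class differs in makeup from the other KO splenic cells was not tested. Its calls therefore do not count as a separate test of the splenic difference. Whether the effects differ between the classes was not tested.

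The classes also differed from each other in WT spleen, where 12 of 30 tested members were higher and 1 lower in Trgv6-called than in Trgv1-called cells, against 27% of all genes called. Slc16a3 was higher by 3.09 ± 0.46 (adjusted p = 0.000132) and Hk2 by 2.00 ± 0.51 (adjusted p = 0.00842). These rest on few UMIs: 14 and 11 in the Trgv6 against 5 and 6 in the Trgv1 class for Slc16a3. For Hk2 they were 9 and 13 against 10 and 11 UMIs. Gapdh was higher by 0.74 ± 0.09 (adjusted p = 2.89e-05) and Pfkp by 0.74 ± 0.11 (adjusted p = 0.000108). Pdk1 differed by -0.80 ± 0.19 (adjusted p = 0.00578), lost without WT library 1 (adjusted p = 0.116), and the Hk2 call was lost without WT library 2 (adjusted p = 0.136). DESeq2 called 8 members, Pdk1 not among them (adjusted p = 0.145), against 12.7% of all genes.

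**Figure D5:**
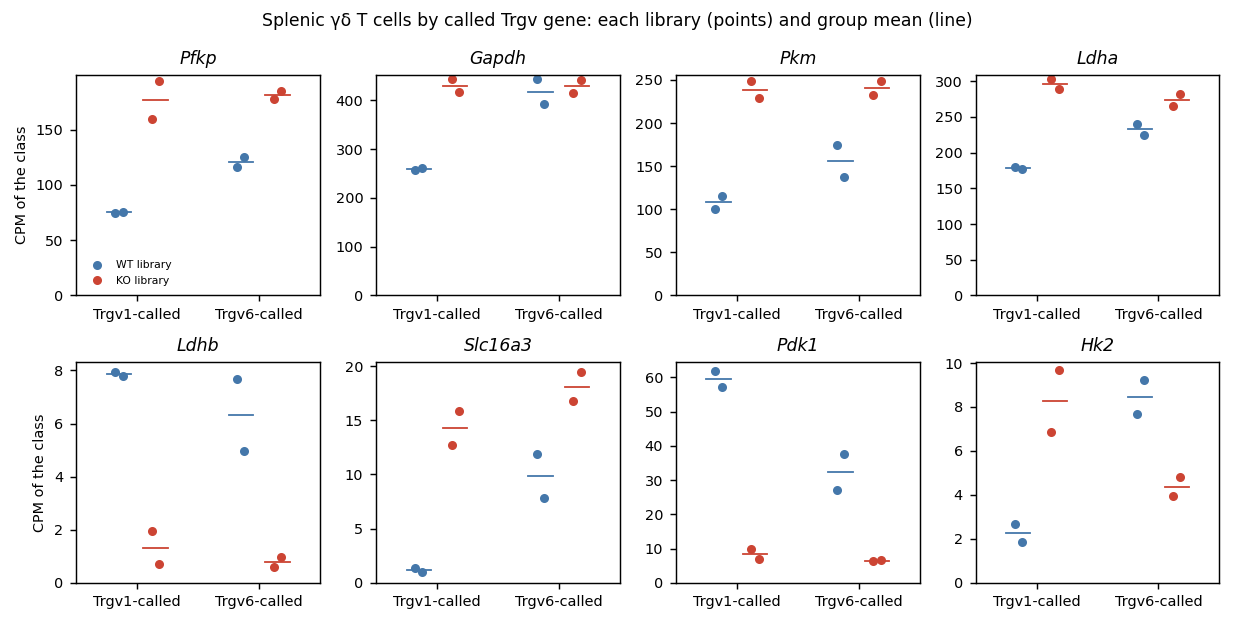
CPM of selected members in Trgv1-called and Trgv6-called splenic γδ T cells, one point per library with the group mean as a line, WT in blue and KO in red. Pdk1 is lower in KO in both classes (27.3 and 37.7 CPM against 6.40 and 6.55 CPM in the Trgv6 class). For Gapdh the WT points lie near the KO points in the Trgv6 class and below them in the Trgv1 class. The KO points of the classes lie near each other for both genes, and the KO Trgv1 class is described by its call only.

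Cells with at least 2 cycling UMIs were compared with cells without one in the same 12 libraries. Of 32 tested members 15 were higher and 4 lower in the cycling cells, against 57.2% of all genes called. Tpi1 was higher by 1.32 ± 0.18 (adjusted p = 6.55e-05), Slc16a1 by 1.02 ± 0.14, Hk2 by 0.93 ± 0.16 and Gapdh by 0.89 ± 0.09, and Tpi1, Gapdh, Pgk1, Pgam1, Pkm and Pdk3 were higher in 12 of 12 libraries. Pdk1 and Pdk2 were lower in 12 of 12 libraries (-0.54 ± 0.09 and -0.90 ± 0.17, adjusted p of 0.000243 and 0.000555). How many of all genes lay on one side in 12 of 12 libraries was not counted. Ldhb, Pfkp and Aldoa had log2 differences of 0.03, -0.01 and 0.05. Cycling cells were deeper, with medians of 6402 to 11864 UMIs against 4634 to 5620 UMIs.

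Related lists give the surroundings of the pathway, and their counts stand beside the shares of all genes called. Of 23 tested genes of other glycolytic isozymes and side reactions, 10 rose and 4 fell in spleen, 7 rose and 5 fell in thymic γδ T cells, and 4 rose and 1 fell in DN cells, near the 54.8%, 49.7% and 23% of all genes called there. Bsg, the chaperone that brings the lactate carriers to the membrane, rose by 0.84 ± 0.11 in spleen (adjusted p = 9.2e-05) and 0.31 ± 0.11 in thymic γδ T cells (adjusted p = 0.0326). Galm, a mutarotase of sugars, rose by 1.22 ± 0.29 in spleen, 0.86 ± 0.29 in thymic γδ T cells and 1.16 ± 0.32 in DN cells (adjusted p of 0.00589, 0.0305 and 0.0267).

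Of 22 tested genes of HIF and MYC control, 8 rose and 8 fell in spleen, 7 rose and 4 fell in thymic γδ T cells and 2 rose in DN cells, against 54.8%, 49.7% and 23% of all genes called in either direction. Mxi1, a MYC antagonist, rose in spleen by 1.5 ± 0.10 (adjusted p = 1.44e-06), and Myc fell in thymic γδ T cells by 1.13 ± 0.27 (adjusted p = 0.00662). Txnip, also of this list, rose in thymic γδ T cells by 1.19 ± 0.18 (adjusted p = 0.000336). Egln3, an oxygen-sensing hydroxylase, rose by 0.74 ± 0.08 in thymic γδ T and 0.84 ± 0.08 in DN cells. Of 14 tested HIF targets outside glycolysis, 7 rose and 4 fell in spleen, 5 rose and 5 fell in thymic γδ T cells, and 2 rose and 1 fell in DN cells, against the same shares. Ero1a, an oxidase of protein folding, rose in all 3 compartments, by 1.97 ± 0.26 in spleen, 2.02 ± 0.26 in thymic γδ T and 0.92 ± 0.25 in DN cells. Others of the list fell: P4ha1 and Kdm3a in spleen (-0.79 ± 0.17 and -0.66 ± 0.11), and Mif and Narf in thymic γδ T cells (-0.65 ± 0.22 and -0.55 ± 0.08).

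Of 10 pentose phosphate genes, 4 rose and 2 fell in spleen, 2 rose and 3 fell in thymic γδ T cells and 4 fell in DN cells, against 54.8%, 49.7% and 23% of all genes called. Tkt, the transketolase that links this pathway to glycolysis, fell by 0.60 ± 0.12 in thymic γδ T and 0.40 ± 0.12 in DN cells (adjusted p of 0.00213 and 0.0343). Taldo1, of the same list, rose in spleen by 0.53 ± 0.12 (adjusted p = 0.00342). Of 20 genes of the citric acid cycle, 9 rose and 2 fell in spleen, 2 rose and 4 fell in thymic γδ T cells and 1 rose in DN cells, against the same shares. Idh3a, of the NAD-dependent isocitrate dehydrogenase, rose in spleen by 0.80 ± 0.10 (adjusted p = 6.9e-05), while Idh2, the mitochondrial NADP-dependent enzyme, fell in thymic γδ T cells by 1.42 ± 0.15 (adjusted p = 4.83e-05).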

How the data were processed

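Cells were profiled with 10x Genomics 3′ v3.1 chemistry, and WT and KO cells were told apart by hashtag antibodies. The authors deposited UMI counts per gene and cell for each demultiplexed library, and the submitters' processing notes name Cell Ranger 8.0.1 and GRCm39. The counts are whole numbers, with no normalization, and as 3′ counts they were not scaled by length. Genotype was taken from the hashtag labels. How doublets were treated beyond the hashtag split is not given in the sources used here, and no caller was run. Barcodes were dropped below 500 UMIs or 200 genes, or above 20% mitochondrial UMIs, which kept 96911 of 97404. CPM divides the UMIs of a gene by all gene UMIs of the library and multiplies by a constant.

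Counts were summed per library and fitted in edgeR 4.0.16 (R 4.3.3; TMM, filterByExpr, robust quasi-likelihood F test) over the 12 libraries, leaving out 9534 ribosomal, Gm-number and mitochondrial genes, with Benjamini-Hochberg adjustment over all genes tested. Trgv classes and cycling classes had fits of their own. The SE is the log2 difference divided by the root of F. A Trgv class takes cells in which that gene leads the Trgv genes, and a cell without cycling UMIs has none over the 10 genes. Libraries of a pool are paired by the labels, and the differences between pools correlated between WT and KO with r of 0.29 in spleen, 0.064 in thymic γδ T and 0.17 in DN cells. DESeq2 1.42.0 and other alternatives were run. Named non-members were drawn from the up to 3 per list and comparison with the largest called difference at 20 CPM or more. Not all of those are named, and Galm in DN cells is named besides. The fit was tested on simulated data. Aldoa was listed under 2 identifiers, the second at most 0.372 CPM and used only in the summed share, and Eno1b, a near copy of Eno1, had 0.469 to 2.48 CPM. Members and lists were chosen with earlier results of these data known.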

Additional observations from a re-analysis of the deposited data

Results flagged for a closer look

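By the interaction term of the edgeR fit, the genotype effect differed between splenic and thymic γδ T cells for 15 members. In that test 29.6% of all genes were called. Values are differences of log2 KO/WT, spleen minus thymus. Tissue, droplet run, mice and their sex cannot be told apart here. The count was lower among cells without a cycling UMI and with single libraries left out, and several calls were lost, as given above. Over the alternatives the difference for Slc16a1 ranged from -0.050 to 0.85. Gapdh and Tpi1 differed by 1.39 and 1.31, Hk2 by 1.18, and Pgam1 and Pgk1 by 0.99 and 0.98. Ldha, Pkm and Slc2a3 differed by 0.85, 0.83 and 0.81, and Slc16a1 by 0.72. Pdha1 and Eno1 each differed by 0.54, Pdk3 by 0.50 and Pfkl by 0.45. In the other direction stood Pdk1 at -2.62 and Slc2a1 at -0.52. The adjusted p ranged from 3.13e-06 for Pdk1 to 0.039 for Slc2a1.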

How the results depend on the processing

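Over the single members and their alternatives 4019 values kept their direction and side of the threshold, or were uncalled with either sign, 195 lost a call, 85 gained one and 4 changed sign with a call on one side. The 4 were Tpi1 (0.45), Pgk1 (0.48) and Ldha (0.32) in thymic γδ T cells without cycling UMIs and the Slc16a1 difference of effects between spleen and thymus (-0.050) over cells without cycling UMIs. The splenic count of 26 ranged from 22 to 23 with one library left out. Leaving out one library gave 11 to 15 members in thymic γδ T cells, 4 to 13 in DN cells, 8 to 14 for the difference of effects, 18 to 20 for thymus against spleen in WT and 7 to 12 in KO, 1 to 9 in Trgv6-called cells, 12 to 17 in Trgv1-called cells and 10 to 13 between the classes. The shares of all genes called moved too, in that order to 43.2% to 45.1% in spleen, 35.5% to 41.4%, 10.9% to 32.7%, 17.2% to 23.3%, 33.2% to 37.1%, 23.4% to 28.9%, 6.05% to 16%, 29% to 32% and 18% to 24.5%. A lone library left in a group is assumed to vary like the others.

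Without cycling cells 10 members were called in DN cells, 7 for the difference of effects and 13 for thymus against spleen in WT, against 23.3%, 20% and 34.5% of all genes. With the pool as a replicate block 12 were called in DN cells and 18 for the difference of effects, against 28.7% and 35.2% of all genes, and the block changed no member's call between genotypes in spleen or in thymic γδ T cells. DESeq2 called 8 in DN cells, 10 in Trgv1-called cells and 8 between the classes, and requiring 2 Trgv UMIs gave 11 in Trgv1-called cells, against 24.8%, 19.9%, 12.7% and 28.5% of all genes. The log2 ratio of summed shares in spleen (0.63) was 0.49 without ribosomal, Gm and mitochondrial genes in the total, 0.53 without the 3 most abundant members, 0.66 without cycling cells and 0.59 to 0.66 with one library left out. In thymic γδ T cells (-0.12) it was 0.016 without Gapdh, 0.017 without the 3 most abundant members, 0.137 without cycling cells and -0.129 to -0.111 with one library left out. In DN cells (-0.105) it was 0.031 without cycling cells and -0.197 to -0.0189 with one library left out. The cause of these shifts was not tested. Each group had 2 pools, and Eno2, Aldoc and the members of the WT Trgv6 class rest on few UMIs; no detection limit was measured.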
